A study of Mus musculus with 16 samples.

Results

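Serpinb7, Ripply1, Cldn2, Aknad1, Cyb5r2, Ptgds and Dhrs7c are 7 genes outside the sarcomere that were low or absent in mouse myoblasts and present in myotubes. They were chosen by name from a counts table of 19799 named genes, because they fell strongly when the transcription factor Msx2 was induced in myotubes or because they were absent in myoblasts and gained in myotubes. All 7 passed the low-count filter, with 16245 genes tested in all. Since levels on msx2 induction and on differentiation chose the genes, those levels are given below as a description, without p-values. The name under which the genes were grouped, differentiation genes lost on Msx2 induction, did not hold for Ptgds, whose level was not lower after induction in any library than in the uninduced library of the same number.

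The libraries came from pmi28, a mouse myoblast line. Both derivatives carried inducible transgenes: the msx2 line carried msx2 together with GFP, and the GFP line carried GFP alone, so all 16 libraries share the cell line and an inducible GFP. Each line was sampled as uninduced myoblasts (n = 2), uninduced isolated myotubes (n = 3) and induced isolated myotubes (n = 3). Confluent myoblasts had been switched to 10% horse serum for 3 days, and myotubes were then collected on a mesh and recultured with the cytostatic AraC. Induction was doxycycline at 2 µg/ml for 24 h in growth medium with 20% fetal bovine serum, and the medium of the uninduced myotubes is not given. The labels do not say whether a line was 1 clone, which promoter drove the transgenes, or whether replicates were separate cultures, so p-values may measure technical spread only.

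During muscle differentiation, myoblasts leave the cell cycle and fuse into multinucleated fibres under control of the MyoD family and MEF2 factors. Msx2 is a homeodomain transcription factor of limb bud, neural crest and bone precursors, known mainly as a repressor, and Msx proteins are known to hold back muscle differentiation. The 7 genes have unlike roles. Serpinb7 is an intracellular serpin, a clade B inhibitor of serine proteases best known from epidermis and kidney mesangium. Ripply1 is a corepressor of the segmenting mesoderm that links T-box proteins to Groucho/Tle repressors. Cldn2 is a claudin that makes cation-permeable pores in the tight junctions of leaky epithelia. Aknad1 encodes a protein with an AKNA domain, whose role is little known. Cyb5r2 is a flavoprotein that passes electrons from NADH to cytochrome b5. Ptgds is the lipocalin-type synthase of prostaglandin D2. Dhrs7c is a short-chain dehydrogenase of the sarcoplasmic reticulum of striated muscle.

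The 250 bases before the annotated start are shown for the 4 genes that fell most on msx2 induction and for Ptgds, which did not fall, to let their letters be compared. They are RefSeq windows on GRCm38.p6, read 5′ to 3′ on the gene's own strand. RefSeq windows matched 6 of the 7 genes, and Dhrs7c was not matched. Capitals mark matches on either strand to the motif CAGCTG, to a second form of the E-box, CACCTG, and to TAATTG, the Msx homeodomain type. They also mark CTA and TAG with any 4 bases between them, a pattern looser than the MEF2 site.
Serpinb7, chr1:107422439-107422688, plus strand: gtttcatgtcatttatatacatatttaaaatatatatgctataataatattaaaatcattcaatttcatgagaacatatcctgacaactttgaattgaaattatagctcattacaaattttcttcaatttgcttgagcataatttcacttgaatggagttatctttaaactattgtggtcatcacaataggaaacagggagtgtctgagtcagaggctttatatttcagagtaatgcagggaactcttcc
Ripply1, chrX:139782354-139782603, minus strand: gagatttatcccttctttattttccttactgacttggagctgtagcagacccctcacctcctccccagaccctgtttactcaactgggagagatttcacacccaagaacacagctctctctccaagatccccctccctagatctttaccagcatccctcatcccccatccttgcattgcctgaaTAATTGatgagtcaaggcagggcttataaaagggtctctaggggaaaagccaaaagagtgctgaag
Cldn2, chrX:139800558-139800807, plus strand: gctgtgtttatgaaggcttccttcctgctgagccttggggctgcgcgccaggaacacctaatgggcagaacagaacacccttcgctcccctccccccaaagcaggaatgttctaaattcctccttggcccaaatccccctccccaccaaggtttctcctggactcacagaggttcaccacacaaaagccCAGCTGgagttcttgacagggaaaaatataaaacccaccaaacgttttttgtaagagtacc
Aknad1, chr3:108739408-108739657, plus strand: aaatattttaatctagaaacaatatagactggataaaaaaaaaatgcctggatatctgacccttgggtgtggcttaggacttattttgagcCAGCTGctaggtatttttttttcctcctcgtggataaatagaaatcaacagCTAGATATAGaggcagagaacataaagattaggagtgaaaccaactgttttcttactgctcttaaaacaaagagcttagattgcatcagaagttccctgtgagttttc
Ptgds, chr2:25469750-25469999, minus strand: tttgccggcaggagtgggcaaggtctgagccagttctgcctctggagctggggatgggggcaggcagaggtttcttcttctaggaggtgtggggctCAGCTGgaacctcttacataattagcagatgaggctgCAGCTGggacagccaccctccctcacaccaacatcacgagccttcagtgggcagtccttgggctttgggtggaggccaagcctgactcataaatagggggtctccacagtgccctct
CAGCTG was found in 4 of the 6 matched windows (Cldn2, Aknad1, Cyb5r2 and Ptgds) and in 13.0% of 32841 RefSeq windows of the same length. The general E-box CANNTG, of which the above are forms, was in 6 of 6, against 66.2% of all windows. TAATTG was in 1, that of Ripply1, against 7.17%. The looser pattern of CTA and TAG was in 1, that of Aknad1 (CTAGATATAG), against 3.20%, and is not taken as a MEF2 site. CACCTG was in 0 of 6, against 17.2%. Genes with CAGCTG thus included both falling genes and Ptgds, and these matches describe letters only.

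Levels are CPM, read counts scaled to each library's TMM-adjusted size. Library totals were 19772048 to 33070931 counts, and this depth sets the precision of the low values. Msx2 was 16.6 ± 0.277 CPM in msx2-line myoblasts (SD, n = 2), 13.7 ± 1.94 in uninduced and 1440 ± 87.1 in induced msx2-line myotubes (n = 3 each), and 1.04 to 1.43 on average in the GFP-line groups. Msx2 thus matched the labels, and in the msx2 line it was above the GFP line without doxycycline too. The summed level of 11 myotube markers was 453 to 1058 CPM in myoblasts, 31251 to 36300 in GFP-line myotubes, 26855 to 32324 in uninduced and 14278 to 17634 in induced msx2-line myotubes. Summed dividing-cell markers (6 genes) were 1443 to 1792 CPM in myoblasts and 50.8 to 117 in myotubes. In these bulk libraries, fewer cells of a type and less RNA per cell cannot be told apart.

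**Figure D1:**
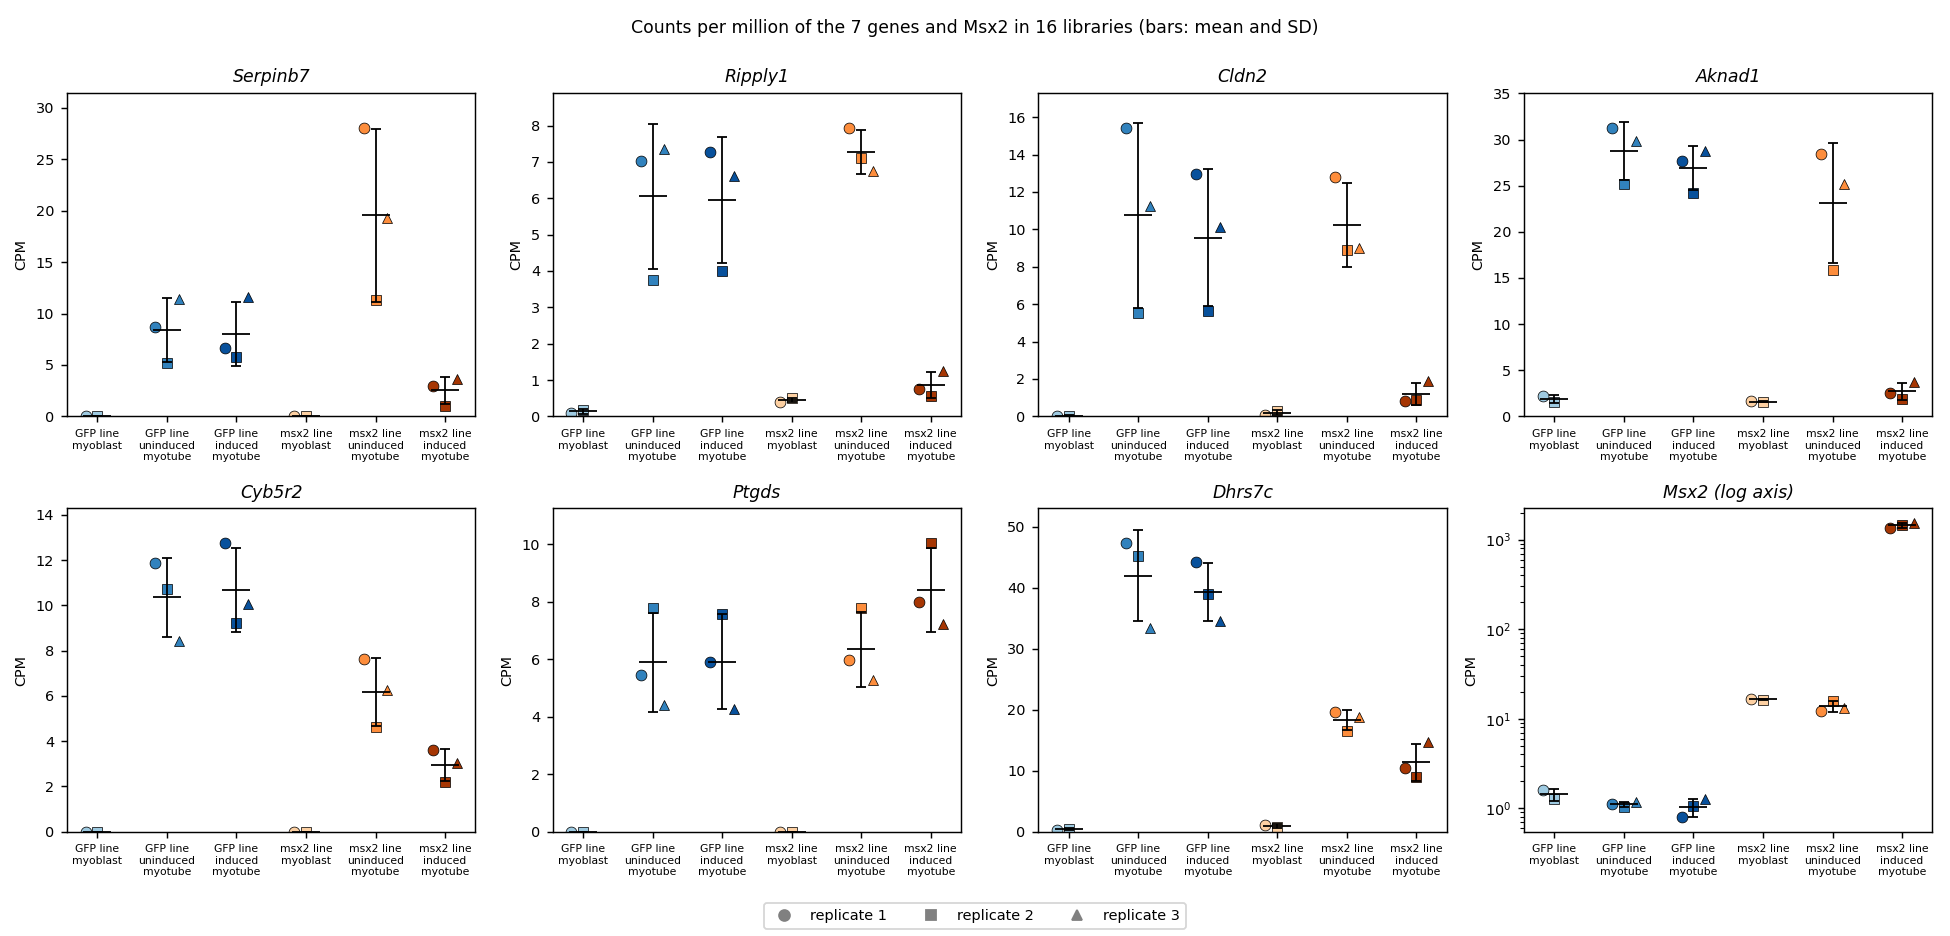
Level of each gene in CPM (vertical axis, log scale for Msx2 only) in the 6 groups, with 1 point per library, marker shape for the replicate number, and the mean with its SD. In induced msx2-line myotubes all genes but Ptgds sit below the other myotube groups. Against the uninduced msx2-line group, Serpinb7, Ripply1, Cldn2 and Aknad1 sit further below than Cyb5r2 and Dhrs7c.

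Serpinb7, the serpin, had no read in any of the 4 myoblast libraries. In GFP-line myotubes it was 8.65, 5.20 and 11.4 CPM uninduced and 6.66, 5.80 and 11.6 induced (replicates 1, 2 and 3, as in all lists that follow). In msx2-line myotubes it was 28.0, 11.3 and 19.2 CPM uninduced and 2.92, 1.02 and 3.63 induced. The uninduced msx2-line libraries were thus the highest, 2 of the 3 above every GFP-line library, and the induced ones were below every other myotube library. The fall was -2.93 ± 0.50 on the log2 scale (SE), and 12.9% of the uninduced mean was left, or 9.06 to 18.9% between libraries of the same number.

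Ripply1, the corepressor, was 0.0933 and 0.182 CPM in GFP-line myoblasts (6 reads in all) and 0.401 and 0.493 in msx2-line myoblasts (21 reads). GFP-line myotubes held 7.03, 3.76 and 7.36 CPM uninduced and 7.27, 3.99 and 6.61 induced. The msx2-line myotubes held 7.94, 7.11 and 6.76 CPM uninduced and 0.761, 0.551 and 1.25 induced. The 3 myotube groups without induced msx2 overlapped, and the induced msx2 group lay apart, just above its own myoblasts. The change was -3.06 ± 0.32 on the log2 scale, which left 11.7% of the uninduced mean. On a scale from the line's myoblasts (0%) to its uninduced myotubes (100%), the induced mean stood at 5.94%.

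Cldn2, the claudin, had 1 read in GFP-line myoblasts (0 and 0.0456 CPM) and 9 reads in msx2-line myoblasts (0.0891 and 0.288 CPM). The GFP-line myotubes had 15.4, 5.53 and 11.3 CPM uninduced and 12.9, 5.63 and 10.1 induced. Those of the msx2 line had 12.8, 8.89 and 9.00 CPM uninduced and 0.845, 0.866 and 1.89 induced. Again only the induced msx2 libraries stood apart among myotubes. The change was -3.05 ± 0.46 on the log2 scale, with 11.7% of the uninduced mean left, and the induced mean stood at 10.1% of the way from myoblasts to uninduced myotubes.

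Aknad1 was the one gene of these 4 with steady reads in myoblasts, at 2.19 and 1.55 CPM in the GFP line and 1.65 and 1.56 in the msx2 line. Levels in GFP-line myotubes were 31.3, 25.2 and 29.8 CPM uninduced and 27.6, 24.2 and 28.8 induced. Levels in msx2-line myotubes were 28.4, 15.8 and 25.2 CPM uninduced and 2.54, 1.93 and 3.74 induced. The induced msx2 libraries overlapped the GFP-line myoblasts and lay above the msx2-line myoblasts. The change was -3.06 ± 0.24 on the log2 scale, 11.8% of the uninduced mean was left, and the induced mean stood at 5.24% of the way up from myoblasts.

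Cyb5r2, the reductase, had no read in any myoblast library. GFP-line myotubes had 11.9, 10.7 and 8.45 CPM uninduced and 12.8, 9.21 and 10.1 induced. Myotubes of the msx2 line had 7.64, 4.62 and 6.26 CPM uninduced and 3.59, 2.21 and 3.02 induced. Its msx2-line myotubes were thus below all GFP-line myotubes already without doxycycline, and lower again with it. The induction change was -1.06 ± 0.23 on the log2 scale, and 47.6% of the uninduced mean was left, with 47.0 to 48.3% between libraries of the same number. In RefSeq the gene overlaps Ppfibp2, a liprin-beta gene, which went from 42.6 ± 6.45 to 20.1 ± 3.23 CPM on msx2 induction (log2 change -1.08 ± 0.14). The library kit keeps strand, but whether strand was used in counting is not given, so reads in the overlap may not be told apart. Ppfibp2 averaged 4.06 and 3.49 CPM in GFP-line and msx2-line myoblasts, where Cyb5r2 had no read. In GFP-line myotubes Ppfibp2 averaged 63.3 CPM uninduced and 59.7 induced. Like Cyb5r2 it was thus lower in msx2-line myotubes, and the limit of the overlap holds for that difference too.

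Dhrs7c, the sarcoplasmic reticulum dehydrogenase, was 0.233 and 0.502 CPM in GFP-line myoblasts (16 reads) and 1.16 and 0.740 in msx2-line myoblasts (44 reads). In GFP-line myotubes it was 47.3, 45.2 and 33.4 CPM uninduced and 44.2, 39.0 and 34.6 induced. In msx2-line myotubes it was 19.7, 16.4 and 18.8 CPM uninduced and 10.4, 8.94 and 14.8 induced. Every msx2-line myotube library was below every GFP-line one, and the induced libraries were below the uninduced ones. The induction change was small beside those above, -0.68 ± 0.18 on the log2 scale, with 62.2% of the uninduced mean left. The induced mean stood at 60.1% of the way from myoblasts to uninduced myotubes.

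Ptgds, the prostaglandin D2 synthase, had no read in any myoblast library. In GFP-line myotubes it was 5.46, 7.78 and 4.41 CPM uninduced and 5.90, 7.57 and 4.28 induced. In msx2-line myotubes it was 5.99, 7.79 and 5.26 CPM uninduced and 7.99, 10.0 and 7.22 induced. The induced msx2 mean was the highest of the 6 groups, its range overlapped that of the uninduced libraries, and each induced library was above the uninduced one of its number. The change was 0.41 ± 0.24 on the log2 scale, or 133% of the uninduced mean.

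Counted together, 6 of the 7 genes passed the threshold as lower on msx2 induction (edgeR quasi-likelihood test, Benjamini-Hochberg adjusted p under 0.05). Among all genes tested, 16.3% passed as lower. Nothing is read from that count, since this contrast chose the genes. With the libraries of the same number paired, Ptgds also passed, as higher, at 0.41 ± 0.11 (19.1% of all genes passed as higher with the pairing). Without all libraries numbered 2, a check chosen after seeing the data, Dhrs7c no longer passed (-0.60 ± 0.23), which left 5 genes. Of the 16245 genes, 7 had a larger fall than Aknad1, 8 than Ripply1, 9 than Cldn2 and 10 than Serpinb7, while 423 had a larger fall than Cyb5r2 and 961 than Dhrs7c. As a description only, 4 genes had 11.7 to 12.9% of their level left, 2 had 47.6 and 62.2% left and 1 was not lower. The choice of genes used these levels.

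**Figure D2:**
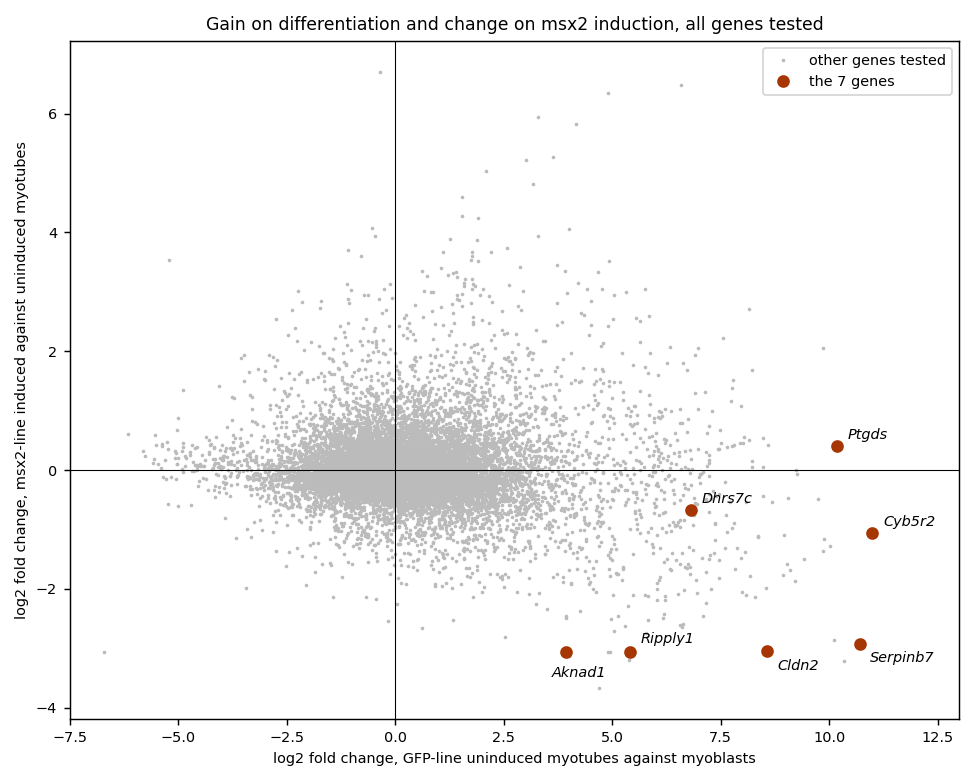
Each point is 1 gene, with the log2 fold change from GFP-line myoblasts to uninduced myotubes on the horizontal axis and that on msx2 induction on the vertical axis. The 7 genes lie far to the right, and Serpinb7, Ripply1, Cldn2 and Aknad1 also lie at about -3 on the vertical axis. Horizontal values of genes without myoblast reads depend on the prior count.

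On differentiation, 7 of 7 genes passed as higher in the GFP line and 7 of 7 in the msx2 line, against 39.8% and 40.8% of all genes tested. This contrast also served to choose them. Pooled over libraries, Aknad1 rose 15.3-fold in the GFP line and 14.2-fold in the msx2 line. Ripply1 rose 43.9-fold and 16.0-fold, and Dhrs7c 110-fold and 19.3-fold, both with more myoblast reads in the msx2 line. Cldn2 was 449-fold higher in GFP-line myotubes, a ratio against 1 read with a 95% counting interval of 80.4 to 17770, and 51.5-fold higher in the msx2 line. For the genes without myoblast reads, a floor of 3 counts over the group gives lower bounds. In the GFP and msx2 lines, Serpinb7 was at least 125-fold and at least 291-fold higher. Cyb5r2 was at least 145-fold and at least 94.0-fold higher. Ptgds was at least 83.8-fold and at least 98.6-fold higher.

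The GFP line, given the same doxycycline and growth medium, was the control for these and for GFP. The choice of genes did not use its induction, but may have used its uninduced myotubes through the gain on differentiation. The 7 genes kept between 89.0% (Cldn2) and 103.1% (Cyb5r2) of their uninduced mean. The log2 changes were -0.09 ± 0.46 for Serpinb7, -0.03 ± 0.26 for Ripply1, -0.16 ± 0.37 for Cldn2 and -0.10 ± 0.20 for Aknad1. They were 0.05 ± 0.20 for Cyb5r2, 0.02 ± 0.25 for Ptgds and -0.09 ± 0.17 for Dhrs7c. None of the 7 passed (edgeR, adjusted p = 1 for each), 0 had an unadjusted p under 0.05, and 0 passed by DESeq2 or with paired numbers. Of all genes tested, 0.0308% passed. With SEs up to 0.46, smaller changes of Serpinb7 and Cldn2 were not detectable in the unpaired fit. With paired numbers their log2 changes were -0.06 ± 0.25 and -0.14 ± 0.24.

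**Figure D3:**
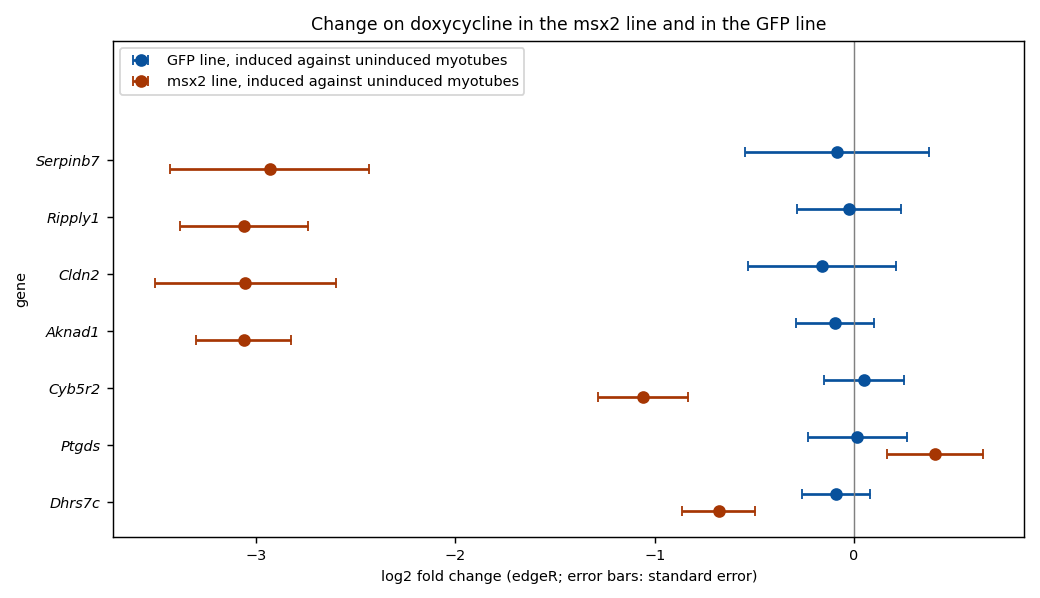
Log2 fold change of each gene between induced and uninduced myotubes, with its standard error, in the GFP line (blue) and the msx2 line (brown). The GFP-line values lie within -0.16 to 0.05, and the msx2-line values run from -3.06 (Ripply1, Aknad1) to 0.41 (Ptgds).

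The difference of the inductions, msx2 line less GFP line, shares the libraries that chose the genes and is a description. On the log2 scale it was -2.85 ± 0.68 for Serpinb7, -3.04 ± 0.42 for Ripply1, -2.89 ± 0.59 for Cldn2, -2.97 ± 0.31 for Aknad1 and -1.11 ± 0.30 for Cyb5r2. These 5 passed as lower, against 8.78% of all genes. Dhrs7c, at -0.59 ± 0.25, and Ptgds, at 0.39 ± 0.35, did not pass. Without induced GFP-line replicate 1, Cyb5r2 no longer passed (-0.96 ± 0.31), and without induced msx2-line replicate 3, Dhrs7c did (-0.82 ± 0.22).

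The lines also differed before induction. These libraries also served to choose the genes, so the values and counts here are a description. In uninduced myotubes Dhrs7c was 18.3 ± 1.67 CPM in the msx2 line and 42.0 ± 7.49 in the GFP line (n = 3 each), a log2 difference of -1.20 ± 0.18. It was the only one of the 7 to pass, as lower, where 0.0554% of all genes did. It no longer passed when only these libraries were fitted, or without any 1 of the msx2-line libraries or GFP-line replicate 1 or 2. With paired numbers Dhrs7c (-1.19 ± 0.18), Cyb5r2 (-0.76 ± 0.14) and Serpinb7 (1.20 ± 0.23, higher) passed, against 0.566% of genes as lower and 0.499% as higher. Without the pairing the values of Cyb5r2 and Serpinb7 were -0.75 ± 0.21 and 1.20 ± 0.44. Ripply1 (0.26 ± 0.25), Cldn2 (-0.07 ± 0.36), Aknad1 (-0.32 ± 0.20) and Ptgds (0.11 ± 0.25) passed in neither. Uninduced msx2-line myotubes held 13.7 CPM of Msx2 against 1.11 in the GFP line. The part of that level in these differences was not tested.

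Absence in myoblasts served to choose genes, so the comparison of the lines in myoblasts is also given as a description. Serpinb7, Cyb5r2 and Ptgds had no read in either line, which allows up to 0.0692 CPM in the GFP line and 0.0642 in the msx2 line (3 counts over the group, counting error only). The msx2 line less the GFP line was 1.66 ± 0.89 on the log2 scale for Ripply1 and 1.34 ± 0.59 for Dhrs7c. It was 2.81 ± 2.64 for Cldn2 and -0.22 ± 0.41 for Aknad1. Of these 4 genes with reads, 0 passed in edgeR, where 16.3% of all genes did, and 1 had an unadjusted p under 0.05. DESeq2 called 1 gene higher, Dhrs7c, as did edgeR fitted to the myoblasts alone. The 2 GFP-line myoblast libraries differed far less from each other (chi-square per degree of freedom 1.95) than the 2 of the msx2 line (24.8). The spread between cultures may thus be understated in GFP-line myoblasts. With 1 to 44 reads a group for Ripply1, Cldn2 and Dhrs7c, these differences were at the limit of the depth.

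Comparisons of the induced msx2-line myotubes with other groups use libraries that chose the genes, so nothing is read from their counts. In induced myotubes, 6 genes passed as lower in the msx2 line than in the GFP line (17.8% of all genes), and Ptgds did not pass (0.50 on the log2 scale). Among them Serpinb7, at -1.65 ± 0.52, did not pass without induced msx2-line replicate 1 (-1.74) or 2 (-1.27), without induced GFP-line replicate 3 (-1.29), or with no low-count filter (-1.65). Against their own myoblasts, the induced msx2-line myotubes were still higher for 5 genes (42.4% of all genes). Ripply1 (0.94 ± 0.54) and Aknad1 (0.78 ± 0.35) did not pass, though their libraries did not overlap. Aknad1 did pass by DESeq2 (0.74), under upper-quartile scaling (0.98), with the 5 CPM filter (1.00), with only the compared groups (0.75) and without induced replicate 2 (0.99). Cldn2 passed at 2.63 ± 0.97 but not without either myoblast library (2.06 and 3.70) or without induced replicate 3 (2.14). Induced means were 1.91 times the myoblast mean for Ripply1, 1.70 times for Aknad1, 6.36 times for Cldn2 and 12.0 times for Dhrs7c. The 4 strongly falling genes thus ended at unlike heights over their myoblasts: Serpinb7 still had 2.52 ± 1.35 CPM where myoblasts had no read.

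Most of the 7 genes had the same lowest replicate in most myotube groups, but not the same highest one. No share of all genes is given beside this. In the 4 myotube groups, replicate 2 was the lowest library for Serpinb7 and Aknad1 in 4 of 4, and for Ripply1, Cldn2 and Cyb5r2 in 3 of 4. For Ptgds it was the highest in 4 of 4. The summed level of 9 fibroblast markers in msx2-line myotubes was 473, 1263 and 842 CPM uninduced and 444, 1321 and 644 induced, highest in replicate 2 in both. In GFP-line myotubes it was 667 to 700 CPM uninduced and 653 to 737 induced, and in myoblasts 2377 to 2442 (GFP line) and 3493 to 3555 (msx2 line). No fibroblast marker was at 0 throughout a myotube group. These sums were highest in myoblasts, so they do not tell fibroblasts from myoblasts. Their part in the genes' spread was not tested. Summed epithelial markers (13 genes), of interest for Cldn2 and Serpinb7, were 19.5 to 20.7 CPM in myoblasts and 92.4 to 112 in GFP-line myotubes. They were 94.7 to 111 in uninduced and 68.4 to 87.0 in induced msx2-line myotubes, none of them at 0 throughout a myotube group. Of the 11 tested on msx2 induction, 2 passed as higher (the keratins Krt7 and Krt8) and 1 as lower (Trp63), with a median log2 change of 0.28, against the direction of the sum. Their part was not tested either.

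Ripply1 and Cldn2 are neighbours on the X chromosome in RefSeq (GRCm38.p6), on opposite strands and pointing apart, with 0 annotated genes between them. Their log2 CPM had the highest correlation of any pair of the 7 over the 16 libraries (Pearson r = 0.986), which share the same groups. Cyb5r2 and Dhrs7c, on chromosomes 7 and 11, were nearly as high (0.983). The lowest was that of Aknad1 with Ptgds (0.666). Cldn2 had 2.19, 1.47 and 1.53 reads for each Ripply1 read in uninduced and 1.78, 1.41 and 1.53 in induced GFP-line myotubes. In msx2-line myotubes it had 1.62, 1.25 and 1.33 uninduced and 1.11, 1.57 and 1.51 induced. The ratio lay between 1.11 and 2.19 in all 12 myotube libraries. In the induced msx2-line libraries it rested on 14 to 35 Ripply1 reads. Since the fall on msx2 induction served to choose the genes, nothing is read from the ratio there. In myoblasts it was 0 to 0.583, from at most 21 reads of Ripply1 a group.

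**Figure D4:**
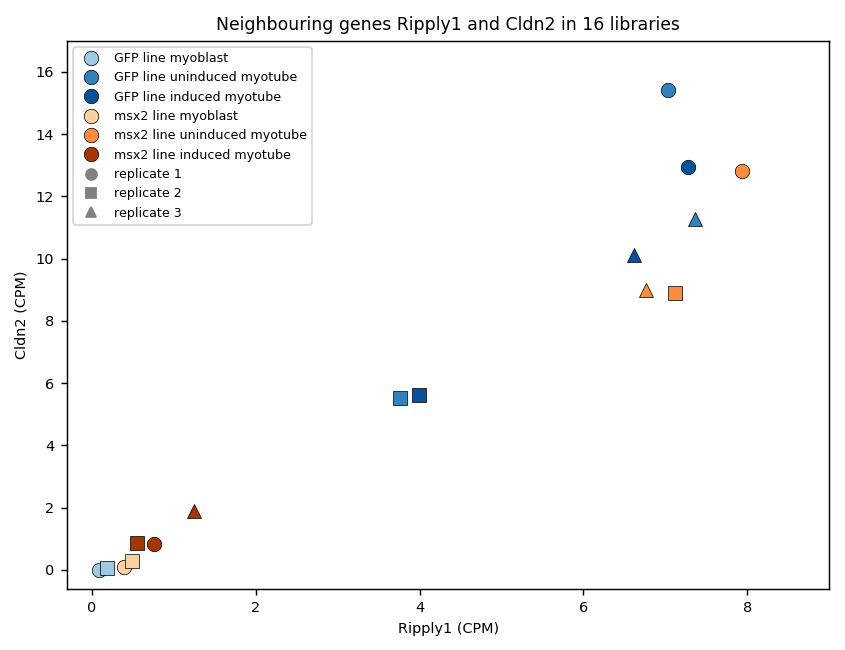
Ripply1 (horizontal) and Cldn2 (vertical) in CPM, with 1 point per library, colour for the group and marker shape for the replicate number. The 4 myoblast libraries and the 3 induced msx2-line libraries lie near the origin, and the other 9 myotube libraries spread along a line with replicate 2 lowest in the GFP line.

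The genes whose levels ran most like each of the 7 over the 16 libraries were, by Pearson r of log2 CPM, the following. Serpinb7 ran with Col22a1 (a collagen of the muscle-tendon junction), Serpinb6c and Wdr47, each at r = 0.990. Ripply1 ran with Shisa2 (0.984), Bcl6 (0.983, a transcriptional repressor) and Sccpdh (0.982). Cldn2 ran with Pdlim3 (0.991, a Z-disc protein), Bcl6 (0.989) and Ppap2a (0.987). Aknad1 ran with Osbpl3 (0.996), Hsf2 and Klhl13 (0.991). Cyb5r2 was nearest to Pde4dip (0.997) and Slc38a9, Dhrs7c to Cds2 (0.993), Ppargc1b and Flcn, and Ptgds to Tnik (0.996), Tec and Hephl1. With rank correlations, 1 of 3 was the same gene for Serpinb7 and for Cldn2 and 0 of 3 for the others, so these names depend on the measure. Shisa2 went from 121 ± 19.2 to 21.3 ± 8.95 CPM on msx2 induction and Pdlim3 from 821 ± 68.3 to 168 ± 54.5. Tec, among the genes most like Ptgds, went the other way, from 21.6 ± 1.57 to 27.2 ± 1.52.

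Relatives and partners of the 7 genes were then tested on msx2 induction, where 16.2% of all genes passed as higher, 16.3% as lower, and the median log2 change was -0.01. Of 16 other Serpinb genes, 6 rose and 5 fell (median log2 change -0.09). Serpinb6a, an abundant intracellular serpin, fell from 496 ± 70.2 to 261 ± 19.2 CPM (-0.92 ± 0.10, edgeR adjusted p = 2.44e-06). Serpinb6c fell from 21.0 ± 7.47 to 7.53 ± 2.34 CPM (-1.48 ± 0.28, 0.00100). Serpinb9g and Serpinb9f rose, by 1.50 ± 0.17 and 1.71 ± 0.22. These 2 also rose in the GFP line, from 5.01 ± 1.37 to 24.5 ± 1.52 CPM (adjusted p = 3.32e-05) and from 2.27 ± 0.824 to 9.92 ± 0.0898 (0.00118). They belong to a cluster of near-identical copies, so the split of reads among them is uncertain. Of the 16, 12 rose on differentiation in the GFP line, where 39.8% of all genes did, and 1 fell.

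Of 21 genes of the Ripply, T-box and Groucho list, which holds the partners of Ripply1 and genes of somite segmentation, 5 rose and 3 fell (median -0.09). Tbx15, a T-box factor of muscle and skeleton, fell from 249 ± 23.8 to 86.7 ± 10.3 CPM (-1.52 ± 0.11, edgeR adjusted p = 4.89e-08). Tbx18 fell from 37.5 ± 4.32 to 14.3 ± 0.301 CPM (-1.39 ± 0.11). Tbx3, a T-box repressor, rose from 4.02 ± 0.196 to 15.5 ± 1.66 CPM, and Lfng, a modifier of Notch receptors, from 3.67 ± 0.198 to 14.2 ± 1.86 (both 1.94 on the log2 scale). T-box genes thus went both ways while Ripply1 fell.

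Of 21 claudin and tight junction genes, 6 rose and 3 fell (median 0.10). Cldn4, a claudin of tighter epithelia, rose from 0.535 ± 0.221 to 2.64 ± 0.287 CPM (2.35 ± 0.35, edgeR adjusted p = 8.58e-05), and Marveld3 rose from 0.711 ± 0.161 to 1.77 ± 0.381. Jam3, an adhesion molecule, fell from 55.9 ± 6.06 to 28.8 ± 4.50 CPM (-0.95 ± 0.10, 2.94e-06) and Cxadr, the coxsackievirus and adenovirus receptor, from 19.4 ± 1.11 to 15.6 ± 1.05. Cldn2 and Cldn4 therefore moved in opposite directions in the same libraries.

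Of 14 genes of cytochrome b5 relatives, reductases and the enzymes served, 6 rose and 1 fell (median 0.26). The gene Cyb5 itself was not among these 14 (log2 change 0.19). Scd2, a fatty acid desaturase, rose from 213 ± 21.1 to 489 ± 44.2 CPM (1.20 ± 0.08, edgeR adjusted p = 1.70e-08). Cyb5r3, the main reductase, rose by 0.38 ± 0.07, and Cyb5r1 fell from 246 ± 42.5 to 172 ± 21.3 CPM (-0.51 ± 0.11, 0.00152). The reductases thus divided, with Cyb5r2 and Cyb5r1 lower and Cyb5r3 higher.

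Of 24 genes of prostaglandin synthesis and reception, 8 rose and 4 fell (median 0.19). Ptgs2, the inducible cyclooxygenase that feeds Ptgds and the other synthases, fell from 199 ± 36.9 to 109 ± 19.3 CPM (-0.87 ± 0.14, edgeR adjusted p = 2.22e-04), and the receptor Ptger4 from 17.3 ± 1.49 to 8.94 ± 0.808. The transporter Slco2a1 rose from 5.01 ± 0.818 to 9.26 ± 0.791 CPM (0.88 ± 0.15, 3.37e-04) and the reductase Ptgr2 from 64.2 ± 3.65 to 79.1 ± 1.03. Of 5 lipocalins tested, 3 rose, each below a mean of 1 CPM, and 0 fell (median 0.97).

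Of 29 short-chain dehydrogenase and retinoid genes, 8 rose and 5 fell (median -0.01). Dhrs7, the nearest namesake of Dhrs7c, fell from 19.1 ± 1.83 to 7.11 ± 1.16 CPM (-1.42 ± 0.14, edgeR adjusted p = 1.99e-06), and Dhrs3, a retinal reductase, from 13.3 ± 2.61 to 5.69 ± 1.48 (-1.22 ± 0.22). Cyp26b1, which breaks down retinoic acid, rose from 9.44 ± 1.49 to 29.0 ± 4.65 CPM (1.61 ± 0.14, 3.86e-07) and Dhrs11 from 9.91 ± 1.06 to 23.9 ± 1.51. In the GFP line 0 genes of the lists other than the serpins passed on induction. Every list except the lipocalins had genes that passed in each direction on msx2 induction.

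**Figure D5:**
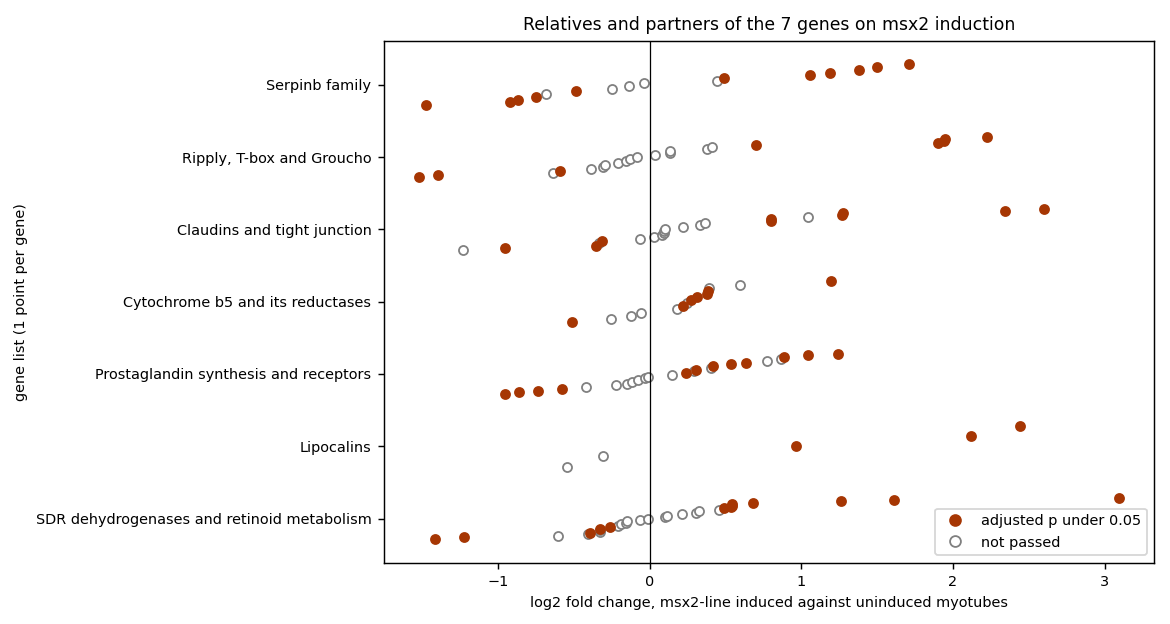
Log2 fold change on msx2 induction (horizontal) of each tested gene of 7 lists of relatives and partners (rows), with filled points for adjusted p under 0.05. Each list has genes on both sides of 0.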

How the data were processed

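The 16 libraries were stranded mRNA libraries, per the labels' protocols. Deposited values are the authors' raw read counts for each gene. TopHat2 2.0.11, SAMtools 0.1.19, edgeR 3.6.8 and build mm9 appear in the submitters' processing notes. How reads were counted, on which annotation and with which strand setting is not given in the sources used here. The table had 19866 entries, of which 67 had no symbol (0.0601 to 0.0878% of a library's reads) and were dropped. Transgenic GFP was not analysed here.

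All libraries entered a single edgeR 4.0.16 fit (R 4.3.3, limma 3.58.1) with a coefficient for each of 6 groups, TMM scaling and filterByExpr at a minimum count of 10. Quasi-likelihood F-tests were robust and two-sided. In each of 9 comparisons the 16245 p-values were adjusted by Benjamini-Hochberg (threshold 0.05). A standard error is the unshrunken log2 fold change over the square root of F. Correlations used log2 CPM with a prior count of 2. The code was tested on simulated data.

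The 7 genes and all lists were chosen with earlier results of these data known. Besides the 7, the text names up to 2 risers and 2 fallers per list by smallest adjusted p in msx2 induction (if the higher group averaged 1 CPM or more), the 3 most correlated genes per member, and Msx2. One gene that this rule names is not reported here. Neighbours and Ppfibp2 were chosen after values were seen, from RefSeq GRCm38.p6, of another build than mm9, so it gave only gene order and the promoter windows. Replicates numbered alike deviated together between uninduced and induced myotubes (correlations 0.207 to 0.508) and between the lines' uninduced myotubes (0.177 to 0.288). The main fit, and every value not said to be paired, left this pairing out. Values with paired numbers come from an alternative fit, the replicate block. In induced myotubes of the 2 lines, replicates numbered alike did not all deviate together (0.0912 to 0.247). Over all groups of myotubes the correlations were 0.0604 to 0.508 for the same number and -0.404 to 0.0817 for different numbers. Alternatives were other scalings and filters, the replicate block, only the compared groups, DESeq2 1.42.0, each library left out, and, chosen after seeing the data, all libraries numbered 2 left out.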

Additional observations from a re-analysis of the deposited data

Results flagged for a closer look

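The change on induction differed between the msx2 line and the GFP line by the test of the difference itself (edgeR, adjusted p under 0.05). Values are log2 differences, msx2 line less GFP line. Among the 7 genes they were -2.85 for Serpinb7, -3.04 for Ripply1, -2.89 for Cldn2, -2.97 for Aknad1 and -1.11 for Cyb5r2, and the choice of genes used the same libraries.

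Among the relatives, the difference was -0.78 for Serpinb9g, which rose in both lines and by less in the msx2 line, -0.89 for Serpinb6a and -1.39 for Serpinb6c. It was 2.23 for Lfng, 1.79 for Tbx3, -1.41 for Tbx15 and -1.37 for Tbx18. It was 2.04 for Cldn4, 1.24 for Marveld3, -0.95 for Jam3 and -0.36 for Cxadr. It was 1.16 for Scd2, 0.41 for Cyb5r3 and -0.56 for Cyb5r1. It was 0.93 for Slco2a1, 0.34 for Ptgr2, -1.12 for Ptger4 and -0.73 for Ptgs2. It was 1.22 for Dhrs11, 1.65 for Cyp26b1, -1.34 for Dhrs7 and -1.27 for Dhrs3. These relatives were named by their smallest adjusted p on msx2 induction, whose libraries also enter the difference. Nothing is therefore read from their passing it. No explanation of these differences was tested.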

How the results depend on the processing

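On msx2 induction 6 of the 7 genes stayed lower whichever library was left out (4417 to 5227 genes in all), and 0 of them reversed under any alternative run. The replicate block made 1 of the 7 higher on msx2 induction, and likewise 1 in induced myotubes between the lines (both Ptgds, the latter at 0.52 ± 0.11). Aknad1 also passed with it against myoblasts (0.69 ± 0.24). Under RLE and upper-quartile scaling 0 medians of the lists of relatives changed sign, and counts moved by at most 1 each way. In the difference of inductions 4 to 6 genes were lower without 1 library. Between the lines, 5 to 6 were lower in induced myotubes, and 4 to 6 were higher in induced msx2-line myotubes than in myoblasts.

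Counts near 0 moved. GFP induction called 5 genes in all, 9 with the replicate block, 3 with only the compared groups, 10 by DESeq2, 1 without the libraries numbered 2 and 3 to 7 without 1 library. Uninduced lines differed in 10 genes, 173 with the block, 20 without a low-count filter, 1 with only the compared groups, 153 by DESeq2 and 2 to 21 without 1 library. Of the 7 genes, 1 was lower there, 2 with the block (and 1 higher), 0 with only the compared groups and 0 to 1 without 1 library. Myoblasts of the lines differed in 2652 genes, 5173 with only the compared groups and 764 to 2152 without 1 library, when a lone myoblast library is assumed to vary like the other groups. One gene, Dhrs7c, passed there as higher (1) with only the compared groups and by DESeq2. The cause of these moves was not tested, except that fewer libraries were fitted where some were left out.

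Directions of uncalled values turned. Between uninduced lines Cldn2 was 0.0043 with the replicate block. Without 1 library, GFP induction ranged from -0.44 to 0.22 for Serpinb7, -0.28 to 0.20 for Ripply1, -0.48 to 0.17 for Cldn2, -0.10 to 0.16 for Cyb5r2, -0.20 to 0.28 for Ptgds and -0.23 to 0.0011 for Dhrs7c (log2). Between uninduced lines the range was -0.38 to 0.27 for Cldn2 and -0.069 to 0.38 for Ptgds, and between myoblasts it was -0.45 to 0.051 for Aknad1. With 1 to 44 reads a group, myoblast levels of Ripply1, Cldn2 and Dhrs7c were limited by depth.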

Other observations

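Genes next to the 7 in RefSeq were looked up after the values were seen. Of 12 neighbours outside the 7, 7 were tested on msx2 induction, of which 3 fell and 0 rose (median log2 change -0.51), where 16.3% of all genes fell, 16.2% rose and the median was -0.01. Gpsm2, a spindle orientation protein beside Aknad1, fell from 30.5 ± 5.88 to 10.8 ± 1.22 CPM (-1.49 ± 0.12, edgeR adjusted p = 1.31e-07), although it did not pass on differentiation in the GFP line (-0.18 ± 0.12). Stxbp3, on the other side of Aknad1, did not pass (0.13 ± 0.07). Outside Ripply1 and Cldn2, Tbc1d8b fell from 107 ± 5.54 to 85.1 ± 2.34 CPM (-0.33 ± 0.06, 2.50e-04) and Morc4 from 16.2 ± 1.75 to 11.3 ± 1.28 (-0.51 ± 0.10, 0.00104). Serpinb2, Olfml1 and Usp43 did not pass (-0.69 ± 0.79, -0.72 ± 0.35 and -0.07 ± 0.12).

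Among 1924 genes at least 4-fold higher in GFP-line myotubes than in myoblasts, 24.1% passed as lower and 18.7% as higher on msx2 induction, with a median log2 change of -0.12. Genes gained on differentiation thus changed in both directions.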
